A study of Mus musculus with 6 samples.

Results

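The genes described here encode the machinery that readies vesicles for fusion and recycles the fusion proteins afterwards: the priming factors Unc13a, Unc13b, Unc13c and Unc13d, the NSF attachment proteins Napa, Napb and Napg, the ATPase Nsf, and the SNARE genes Snap25 and Snap23. They were taken by symbol from the deposited gene table, and all 10 were found among its 48709 genes and among the 26747 genes tested. The families were chosen by measured values: Unc13c and Napb had been called higher in double knockout hearts in the same contrast. The difference of Unc13c and Napb between genotypes is therefore given as a description and without a test, and nothing is supported with it.

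RNA of embryonic mouse hearts (strain C57BL6/J) was sequenced from polyA libraries in 2 genotypes with 3 libraries each. Double knockout hearts carried RBPMS flox/flox and RBPMS2 flox/flox alleles together with the XML Cre transgene. Control hearts were littermates with the same floxed alleles and no Cre noted in their labels. The series describes the deletion as specific to cardiomyocytes, the contractile cells of the heart. Rbpms and Rbpms2 encode RNA-binding proteins. No group carried Cre without floxed alleles, so an effect of Cre and an effect of losing the genes cannot be told apart, and no source used here gave the embryonic day.

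Fusion of a vesicle with its target membrane is driven by SNARE proteins, which zip together between the membranes. UNC13 proteins open the syntaxin SNARE so that docked vesicles become primed for release. After fusion the spent SNARE bundle is pulled apart by the ATPase NSF, which is recruited by attachment proteins called alpha, beta and gamma SNAP (genes Napa, Napb and Napg). Despite the name, Snap25 and Snap23 belong to another family: they are SNARE proteins of the plasma membrane. Within these families Unc13a, Unc13c, Napb and Snap25 are best known from neurons, where Unc13c is a priming factor of cerebellar synapses. Napa, Nsf and Snap23 act in most cells, and Unc13d acts in the granule release of blood cells.

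Values are normalised read counts, that is, read counts scaled by a factor per library and rounded by the authors, and they summed to between 19770390 and 20215282 per library. Estimated depth was 18759362 to 21991535 reads per library, so a value of 10 stands for roughly 10 reads. Rbpms averaged 697 ± 25.6 in double knockout hearts and 3787 ± 210.5 in control hearts, and Rbpms2 averaged 1454 ± 211 and 2577 ± 136 in the same order of genotypes (SD, n = 3 each), so both targeted genes were lower in the libraries labelled double knockout. Libraries numbered 3 stood apart in both genotypes: Xist was at 20 in double knockout 3 and at 6 in control 3, and at 19501 to 25229 in the other libraries, a male pattern against a female one. The rank correlation (Spearman's rho, across 11905 genes) of GC content with a library's deviation from the mean was 0.13, -0.18 and -0.59 in double knockouts 1 to 3 and 0.28, 0.22 and 0.40 in controls 1 to 3.

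Unc13c was the priming factor with the greatest difference. It lies on chromosome 9 (73479422 to 73968966, minus strand, mm10). It had 614, 539 and 709 normalised read counts in double knockouts 1 to 3, against 132, 140 and 132 in controls 1 to 3. Each double knockout library lay far above each control library, and the controls hardly differed among themselves. The means were 621 ± 85.2 and 135 ± 4.62, a ratio of 4.61 and a log2 difference of 2.19 ± 0.12 (SE, double knockout minus control). Over all 26747 tested genes, 28 had a log2 difference at least as high as that of Unc13c, itself included. Among the 13805 of them with a mean of at least 50, 4 did. These ranks come from the values that chose the gene, so nothing is read from them. In bulk tissue, more cells that express a gene and more RNA per cell cannot be told apart.

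Napb, which encodes beta SNAP, showed the second great difference. It lies on chromosome 2 (148693985 to 148732467, minus strand, mm10). It had 392, 315 and 381 normalised read counts in double knockouts 1 to 3, against 91, 115 and 105 in controls 1 to 3. The genotypes were again far apart, with means of 363 ± 41.6 in double knockout hearts and 104 ± 12.1 in control hearts, a ratio of 3.50 and a log2 difference of 1.80 ± 0.14 (SE). Over all 26747 tested genes, 71 had a log2 difference at least that of Napb, itself included, and 8 of the 13805 with a mean of at least 50 did. Napb was also chosen by these values, so nothing is read from its ranks.

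The promoters of the pair are shown as a description. Both genes were chosen for being higher in double knockouts, so being higher together is no ground for a shared promoter feature. Each runs from 250 bases before to 50 bases after the start in RefSeq (GRCm38.p6), 5′ to 3′ on the gene's strand, at chr9:73968988-73969287 for Unc13c and chr2:148732371-148732670 for Napb, both on the minus strand. Capitals mark the E-box CANNTG, the site read by basic helix-loop-helix factors.
Unc13c promoter: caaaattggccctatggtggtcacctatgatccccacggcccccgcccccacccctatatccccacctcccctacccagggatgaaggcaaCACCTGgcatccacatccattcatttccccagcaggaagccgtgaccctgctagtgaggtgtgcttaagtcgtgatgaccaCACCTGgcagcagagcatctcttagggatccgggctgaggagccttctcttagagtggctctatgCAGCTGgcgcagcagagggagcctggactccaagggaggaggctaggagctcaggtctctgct
Napb promoter: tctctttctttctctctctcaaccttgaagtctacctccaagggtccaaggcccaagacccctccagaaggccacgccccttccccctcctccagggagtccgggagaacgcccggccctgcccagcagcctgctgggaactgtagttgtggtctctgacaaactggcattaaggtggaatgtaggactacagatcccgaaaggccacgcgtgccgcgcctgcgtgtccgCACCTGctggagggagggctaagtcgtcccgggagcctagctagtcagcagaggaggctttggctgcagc
Unc13c held 3 E-boxes and Napb 1, and 72.3% of 32851 RefSeq promoters of this length held at least 1, so the match is common. Neither window held TATAAA, which 13.6% of promoters did, nor the CArG box of serum response factor, which 1.63% did, searched on both strands. The Unc13c window held 6 CpG dinucleotides and the Napb window 13, against 20 to 38 in the windows of Unc13a, Unc13b, Napa, Nsf and Snap23 and a median of 7 over all promoters.

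Unc13a, the main priming factor of excitatory synapses, was the third member past the threshold. It had 134, 116 and 151 normalised read counts in double knockouts 1 to 3, against 94, 82 and 72 in controls 1 to 3. The genotypes did not overlap, but the lowest double knockout library was close to the highest control. The means were 134 ± 17.5 and 82.7 ± 11.02, a ratio of 1.62 and a log2 difference of 0.69 ± 0.16 (SE; limma adjusted p = 0.0184). This call was lost without double knockout 1 (adjusted p = 0.0615), double knockout 3 (0.119), control 2 (0.0503) or control 3 (0.132) and without limma's robust option (0.0876), and over all settings the adjusted p ran between 0.0035 and 0.423. The last 495 bases of Unc13a overlap Colgalt1 on the opposite strand, and the strand setting of the counting was not given. Colgalt1 had 2347, 2399 and 2334 normalised read counts in double knockouts 1 to 3 and 2078, 2108 and 2003 in controls 1 to 3, and its part in the Unc13a values was not tested.

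The Unc13a promoter is shown because it held both parts of the split motif RE1, the element bound by REST, a repressor of neuronal genes. It lies at chr8:71671708-71672007 on the minus strand in GRCm38.p6, and the capitals mark the parts, GGACAGC and TTCAGCACC, both read on the strand opposite to the gene.
Unc13a promoter: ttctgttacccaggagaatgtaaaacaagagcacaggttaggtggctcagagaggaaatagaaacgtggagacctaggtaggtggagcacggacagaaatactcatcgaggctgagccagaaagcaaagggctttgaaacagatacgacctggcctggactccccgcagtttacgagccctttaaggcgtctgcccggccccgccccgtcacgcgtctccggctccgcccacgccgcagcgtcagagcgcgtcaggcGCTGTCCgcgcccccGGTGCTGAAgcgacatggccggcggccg
The parts stand 8 bases apart. Of 32851 promoters, 0.371% held TTCAGCACC and 6.56% held GGACAGC, and 12 promoters (0.0365%) held both in order on 1 strand. Neither part was found in the windows of Unc13b, Unc13c, Napa, Napb, Nsf or Snap23. Windows of Unc13d, Napg and Snap25 were not among those read, here or above. Of the genes with both parts, 7 were tested, and Unc13a was the only one past the threshold and the only one with a mean above 12. A match describes letters and not a bound site.

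**Figure D1:**
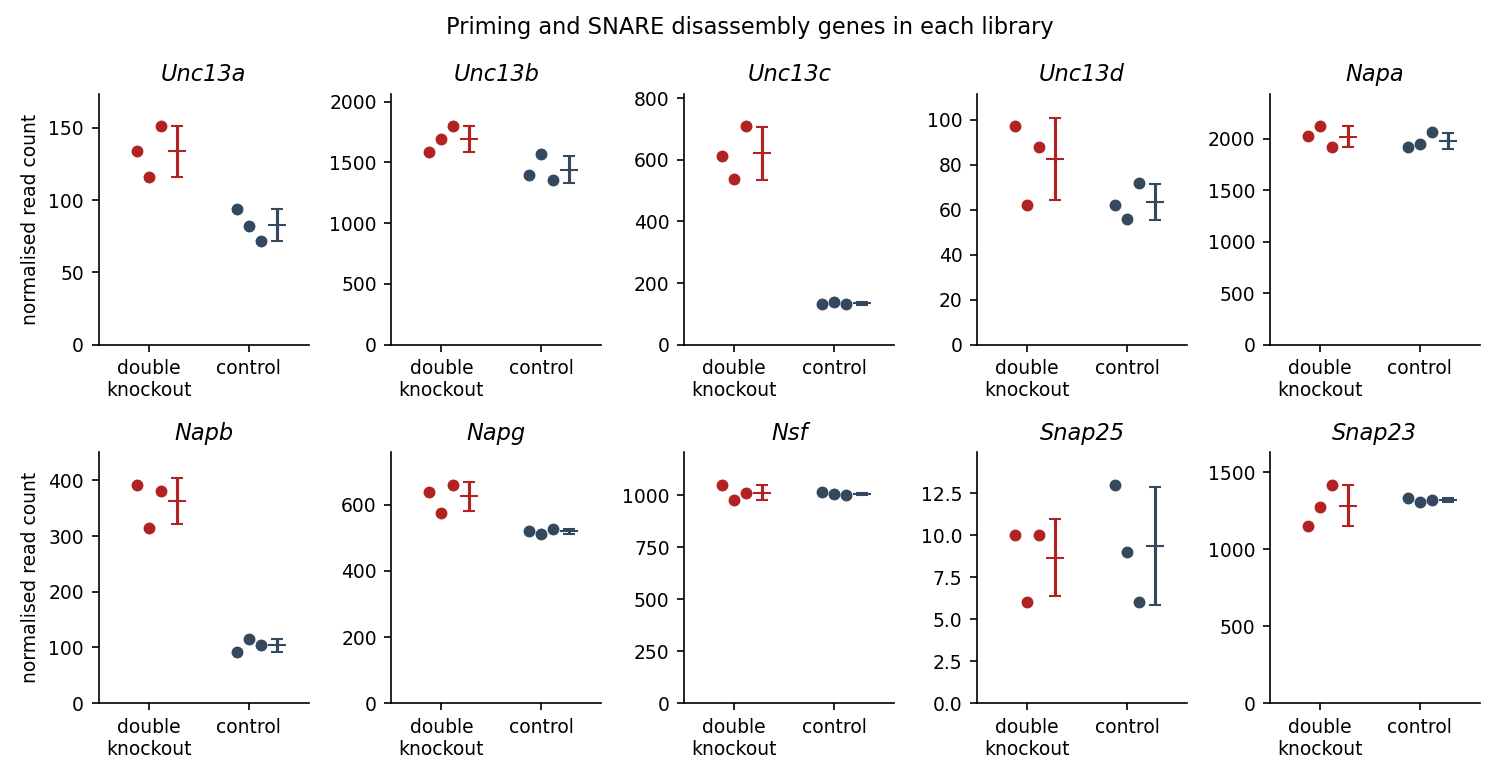
Normalised read counts of the 10 genes in each library, with double knockout at left and control at right in each panel; points are libraries 1 to 3 and the bar beside them is the mean ± SD. Unc13c (539 to 709 against 132 to 140) and Napb (315 to 392 against 91 to 115) stand far apart between genotypes, while Napa, Nsf, Snap25 and Snap23 overlap.

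The remaining priming factors gave smaller differences. Unc13b, a priming factor expressed in brain and many other tissues, had 1585, 1695 and 1797 normalised read counts in double knockouts 1 to 3, against 1399, 1565 and 1355 in controls 1 to 3. The lowest double knockout library was just above the highest control, and the log2 difference of 0.23 ± 0.09 (SE, limma adjusted p = 0.1495) did not pass. The 95% interval of Unc13b ran from 0.048 to 0.42. Unc13d had 97, 62 and 88 in double knockouts 1 to 3, against 62, 56 and 72 in controls 1 to 3, with double knockout 2 inside the control range. Its log2 difference of 0.36 ± 0.20 (limma adjusted p = 0.341) did not pass, and its 95% interval ran from -0.052 to 0.76.

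Because Unc13d acts in blood cells, their markers were read beside it. Of 8 leukocyte markers 2 were called higher, Ptprc (30, 31 and 35 in double knockouts, 15, 12 and 12 in controls) and Cx3cr1 (79, 126 and 106 in double knockouts, 64, 61 and 52 in controls), both named after their values were seen. Their calls were lost without double knockout 3 or control 3, and that of Cx3cr1 also without double knockout 2 or control 1 (adjusted p up to 0.0655 for Ptprc and 0.139 for Cx3cr1). The 8 markers summed to 1463 to 1795 in double knockout libraries and 1389 to 1474 in control libraries. The 5 platelet markers summed to 523 to 1206 and 484 to 636, and the 8 erythroid markers to 102659 to 145419 and 48895 to 134429, in the same order of genotypes, with 0 called in each list by limma (at an unadjusted p under 0.05, 2 platelet genes were higher and 0 erythroid genes moved, and voom weights called 0 in both). The replicate block called 3 platelet and 3 erythroid markers higher, and 4 platelet markers were called higher with no filter on low values or without double knockout 2, and 1 without control 3. The sums of all 3 blood cell lists overlapped between genotypes, but most of their genes lay on the higher side. Median log2 differences were 0.40 for leukocyte, 0.86 for platelet and 0.65 for erythroid markers, beside 0.015 over all tested genes. In the same order 7 of 8, 5 of 5 and 8 of 8 markers were above 0, beside 52.8% of all tested genes. The part of blood cells in the Unc13d values was not tested.

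Of the other attachment proteins and the ATPase they serve, Napa and Nsf stayed close to the controls, and Napg was somewhat higher without passing. Napa, alpha SNAP, had 2028, 2123 and 1919 normalised read counts in double knockouts 1 to 3, against 1919, 1952 and 2064 in controls 1 to 3, and the genotypes overlapped. Its log2 difference was 0.032, with a 95% interval of -0.14 to 0.21 (limma adjusted p = 0.876). Napg, gamma SNAP, had 639, 577 and 661 in double knockouts 1 to 3, against 522, 512 and 527 in controls 1 to 3. The Napg values did not overlap between genotypes, and its log2 difference of 0.26 ± 0.09 (SE) did not pass (limma adjusted p = 0.119). The 95% interval of Napg ran from 0.068 to 0.46. Nsf had 1050, 975 and 1011 in double knockouts 1 to 3, against 1013, 1005 and 1002 in controls 1 to 3, with a log2 difference of 0.0070 and a 95% interval of -0.17 to 0.18 (limma adjusted p = 0.978). 

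The SNARE genes of the group did not pass either. Snap23, the widely expressed form, had 1154, 1273 and 1420 normalised read counts in double knockouts 1 to 3, against 1333, 1311 and 1318 in controls 1 to 3. The double knockouts spread on both sides of the controls, and the log2 difference was -0.048 with a 95% interval of -0.24 to 0.14 (limma adjusted p = 0.815). Snap25, the neuronal form, had 10, 6 and 10 in double knockouts 1 to 3, against 13, 9 and 6 in controls 1 to 3. At this depth its 95% interval ran from -0.88 to 0.74 (limma adjusted p = 0.943), so a change of the size seen in Unc13a was not detectable in Snap25.

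In all, 3 of the 10 genes were called higher (Unc13a, Unc13c and Napb) and 0 lower at a limma adjusted p under 0.05, where 2.31% of all tested genes were called higher, 2.55% lower and 4.86% in either direction. At an unadjusted p under 0.05, 5 of the 10 were higher and 0 lower. The share of all tested genes at that unadjusted threshold is not given here, so the unadjusted counts in this text have no background. With voom weights 3 were called higher and 0 lower, where 555 and 664 of all 26747 tested genes were. The genotypes did not overlap in 5 genes, all higher in double knockouts (these 3 plus Unc13b and Napg), where 11.1% of tested genes did not overlap with double knockouts higher, 10.6% with double knockouts lower and 21.7% in either direction. Since Unc13c and Napb brought the families in, nothing is read from these counts over 10 genes. Of the other 8 genes, 1 was called higher (Unc13a) and 0 lower. In 3 of the 8 the genotypes did not overlap, all higher in double knockouts (Unc13a, Unc13b and Napg). The 8 genes had a median log2 difference of 0.13, beside 0.015 over all tested genes. Among the double knockouts, library 2 had the lowest value in 7 of the 10 genes.

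**Figure D2:**
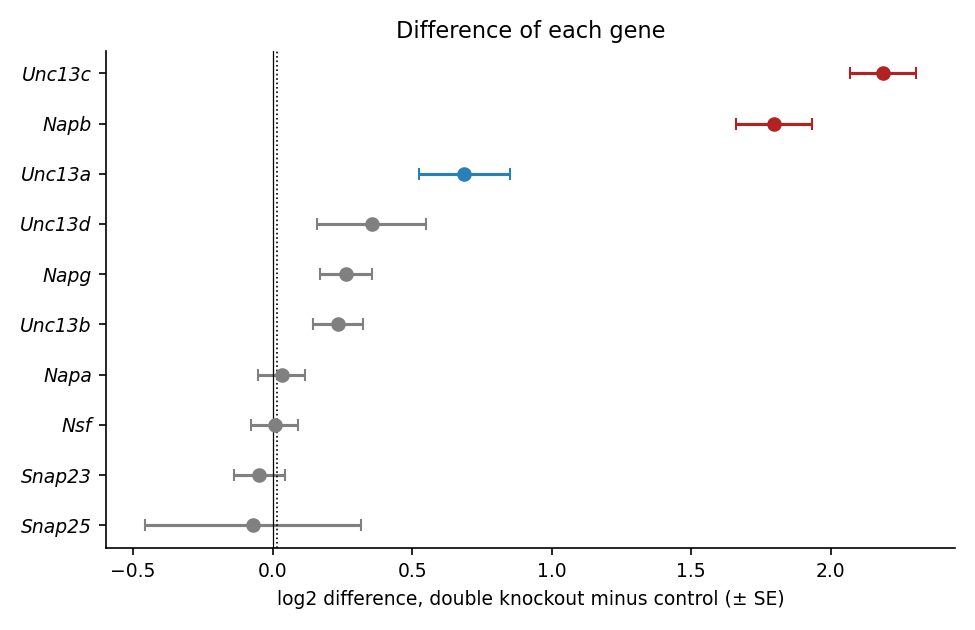
Log2 difference of each gene, double knockout minus control, with its SE; red marks Unc13c and Napb, which brought the families in, blue marks Unc13a (adjusted p = 0.0184), grey marks genes that did not pass, and the dotted line is the median of all tested genes (0.015). The values run from -0.070 for Snap25 to 2.19 for Unc13c.

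Levels between genes can be compared only per length, and were taken per kb of the longest annotated transcript. In control hearts the order was led by Napa (786 ± 30.2 per kb), Snap23 (484 ± 4.12), Nsf (267 ± 1.51), Napg (146 ± 2.14) and Unc13b (97.6 ± 7.51), the broadly expressed genes. Napb (23.5 ± 2.73), Unc13d (15.7 ± 2.00), Unc13c (15.3 ± 0.53), Unc13a (8.06 ± 1.07) and Snap25 (1.91 ± 0.72) followed (SD, n = 3). Neighbours in this order did not overlap between libraries except Unc13d and Unc13c. In double knockout hearts Unc13c was at 70.6 ± 9.69 per kb, above Unc13d at 20.3 ± 4.49, and Napb was at 82.2 ± 9.44. The ranges of Napb and Unc13c overlapped in double knockouts, and both lay below Unc13b at 115 ± 7.19. With the union of exons as length, the double knockout means were 74.4 per kb for Unc13b, 70.6 for Unc13c and 51.4 for Napb, and the ranges of Unc13b and Unc13c overlapped while those of Unc13c and Napb did not.

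Within its family, Unc13c made up 32.2% ± 1.80 of the UNC13 level per kb in double knockout hearts and 11.2% ± 0.17 in control hearts (SD, n = 3 each). Unc13b made up 52.6% ± 3.54 and 71.4% ± 2.11 in the same order. The summed UNC13 level was 219 ± 18.4 per kb in double knockout hearts and 137 ± 6.40 in control hearts. Napb made up 7.75% ± 0.97 of the attachment protein level in double knockout hearts and 2.46% ± 0.27 in control hearts, with Napa at 75.7% ± 2.38 and 82.3% ± 0.38. The summed attachment protein level was 1061 ± 23.8 per kb in double knockout hearts and 955 ± 32.3 in control hearts. So Napb stayed a small share of its family in both genotypes, while Unc13c was a large one in double knockouts. With the union of exons as length, the Unc13c share was 40.6% in double knockouts and 15.5% in controls, and the Unc13b share 43.1% and 64.1%. On that length Unc13c was above Unc13b in double knockout 1 (40.9% against 40.8%) and double knockout 3 (42.3% against 41.5%). So which of them leads in double knockouts depends on the length used. The isoforms in use were not measured, and Unc13b has 16 annotated transcripts against 2 for Unc13c. Both lengths used for Unc13b were long (14754 and 22746 bases, against 8796 on either count for Unc13c). A shorter Unc13b form in use would raise the Unc13b share and lower that of Unc13c, which neither length can show.

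**Figure D3:**
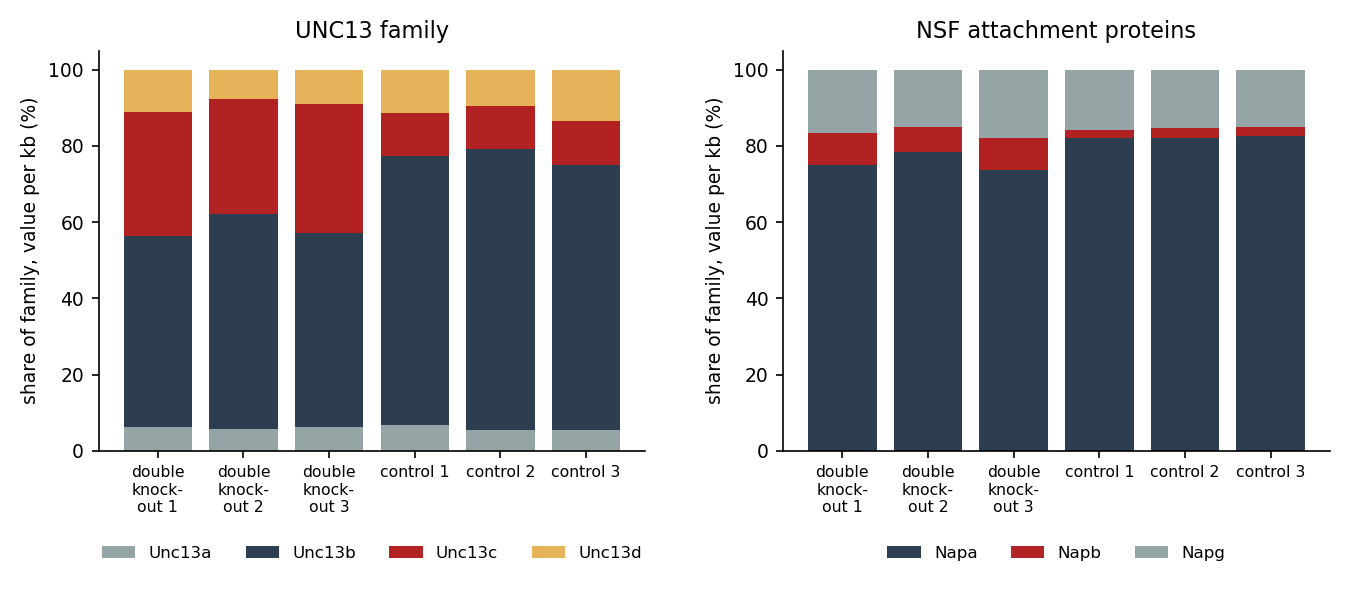
Share of each gene in the summed level per kb (longest transcript) of its family, in percent, for double knockouts 1 to 3 at left and controls 1 to 3 at right in each panel. Unc13c takes 30.2% to 33.7% of the UNC13 level in double knockouts and 11.1% to 11.4% in controls, and Napb takes 6.63% to 8.35% and 2.22% to 2.76% of the attachment protein level.

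Reads of the paralogs can be told apart. No 75-base window, the read length, of the longest transcript of Unc13a, Unc13b, Unc13c, Unc13d, Napa, Napb, Napg, Nsf or Snap25 was found in a transcript of another gene, and 0.414% of the Snap23 windows were. The coding sequences of Napa and Napb were identical in 76.3% of 885 aligned bases, and those of Snap25 and Snap23 in 68.3% of 600.

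None of the 8 nearest tested protein-coding genes, 2 on each side of Unc13c and of Napb, was called higher, where 2.31% of all tested genes were. Unc13c is flanked by Rsl24d1 (a ribosome assembly factor gene), with 754 ± 53.5 normalised read counts in double knockouts and 721 ± 35.2 in controls (limma adjusted p = 0.750), and by Khdc3, at 0 to 2 in each library. On its other side Wdr72 lies 141390 bases away and was lower, with 35, 15 and 22 in double knockouts 1 to 3, against 45, 51 and 44 in controls 1 to 3 (log2 difference -1.01 ± 0.27, limma adjusted p = 0.0373). The Wdr72 call was lost without any one of double knockouts 2 and 3 and controls 1, 2 and 3 (adjusted p up to 0.161). Fam214a, further out, had 538 ± 9.07 and 476 ± 23.1 (limma adjusted p = 0.315). Gzf1, a zinc finger gene that ends 1036 bases from Napb, had 775 ± 8 in double knockouts and 812 ± 25.9 in controls (limma adjusted p = 0.711). Nxt1, an mRNA export factor gene (limma adjusted p = 0.760), Cst9 (0.798) and Cst3, which encodes the protease inhibitor cystatin C (0.188), did not pass.

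Unc13c and Napb followed each other closely over the 6 libraries, with a Pearson's r of 0.994 on log2(value + 1), which with 2 separate genotypes mainly restates that both were higher in double knockouts. Among 11432 protein-coding genes averaging 50 or more, the 3 most like Unc13c were Zfp868 (r = 0.996), Megf10 (r = 0.994) and Napb, and those most like Napb were led by Unc13c and Fbxo40 (r = 0.993). Zfp868, a zinc finger gene, had 705, 724 and 767 normalised read counts in double knockouts 1 to 3, against 276, 279 and 261 in controls 1 to 3. Megf10, which encodes an engulfment receptor known from muscle satellite cells and glia, had 79, 76 and 84, against 40, 42 and 36 in the same order of genotypes. Fbxo40, a muscle ubiquitin ligase gene, had 906 ± 20.5 in double knockouts and 716 ± 31.9 in controls.

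Over 6 lists of other membrane fusion genes, 5 of 117 tested genes were called higher and 4 lower (7.69% in either direction, beside 4.86% of all tested genes). In the list of SNARE genes of the plasma membrane and vesicles, 1 of 14 tested genes was called higher and 0 lower (5 and 0 at an unadjusted p under 0.05). The list's median log2 difference was 0.13, beside 0.015 over all tested genes. The gene called was Snap91, which encodes a clathrin assembly protein and not a SNARE, so no SNARE gene of this list was called. Snap91 had 2536, 2502 and 3216 normalised read counts in double knockouts 1 to 3, against 1537, 2014 and 1493 in controls 1 to 3 (log2 difference 0.71 ± 0.12, limma adjusted p = 0.00336). Among SNARE genes of the endoplasmic reticulum, Golgi and endosomes, 1 of 18 was called higher and 0 lower (2 and 2 unadjusted), with a median of 0.065. That gene was Bet1, a SNARE of transport to the Golgi (505 ± 71.1 in double knockouts, 380 ± 22.65 in controls, limma adjusted p = 0.0416), a call lost without double knockout 2 or 3 or control 1, 2 or 3 (adjusted p up to 0.218).

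Among SM proteins and syntaxin binders, 0 of 17 were called higher and 1 lower (1 and 1 at an unadjusted p under 0.05), with a median of 0.026. Cplx1, complexin 1, a clamp of the SNARE bundle in neurons, had 2, 4 and 8 normalised read counts in double knockouts 1 to 3, against 22, 9 and 17 in controls 1 to 3. Its call (log2 difference -1.65 ± 0.45, limma adjusted p = 0.0382) was lost without double knockout 1 or 2 or control 1 or 3 (adjusted p up to 0.224), and voom weights called 0 genes of this list.

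Docking and priming factors of the active zone held genes called in both directions. Of 30 tested genes 2 were called higher and 2 lower (5 and 3 at an unadjusted p under 0.05). The median log2 difference was 0.16, and 0.043 over the 17 genes with a mean of at least 50. Sytl2, an effector of Rab27 that tethers vesicles to the membrane, had 236, 307 and 236 normalised read counts in double knockouts 1 to 3, against 108, 119 and 118 in controls 1 to 3. The genotypes did not overlap, with a log2 difference of 1.16 ± 0.14 (limma adjusted p = 3.10e-05). Rab27b, a Rab27 GTPase gene, was also higher (159 ± 34.3 in double knockouts, 101 ± 9.64 in controls, limma adjusted p = 0.0299). Cadps, a priming factor of dense-core vesicles, had 95, 93 and 96 in double knockouts 1 to 3, against 165, 199 and 156 in controls 1 to 3 (log2 difference -0.86 ± 0.15, limma adjusted p = 0.00132). Bsn, the active zone scaffold bassoon, had 138, 60 and 79 in double knockouts 1 to 3, against 257, 221 and 254 in controls 1 to 3 (log2 difference -1.48 ± 0.26, limma adjusted p = 0.0126). The Rab27b call was lost without double knockout 1 or 3 or control 1, 2 or 3 (adjusted p up to 0.185) and the Bsn call without double knockout 3 or control 3 (adjusted p up to 0.0615).

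Of the synaptotagmins, which sense calcium or tether vesicles, 1 of 16 was called higher and 0 lower (3 and 1 at an unadjusted p under 0.05), with a median of -0.13. Syt14 had 278, 287 and 272 normalised read counts in double knockouts 1 to 3, against 145, 206 and 173 in controls 1 to 3 (limma adjusted p = 0.00409), a call lost without control 1 (adjusted p = 0.0579). Of the synaptic vesicle proteins, 0 of 22 were called higher and 1 lower (4 and 3 unadjusted), with a median of 0.050. Slc17a7, a vesicular glutamate transporter, had 3, 3 and 1 in double knockouts 1 to 3, against 10, 54 and 18 in controls 1 to 3 (limma adjusted p = 0.00388). Its controls spread widely, and 1 of them, control 2, holds most of their sum, and the call was lost with voom weights.

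**Figure D4:**
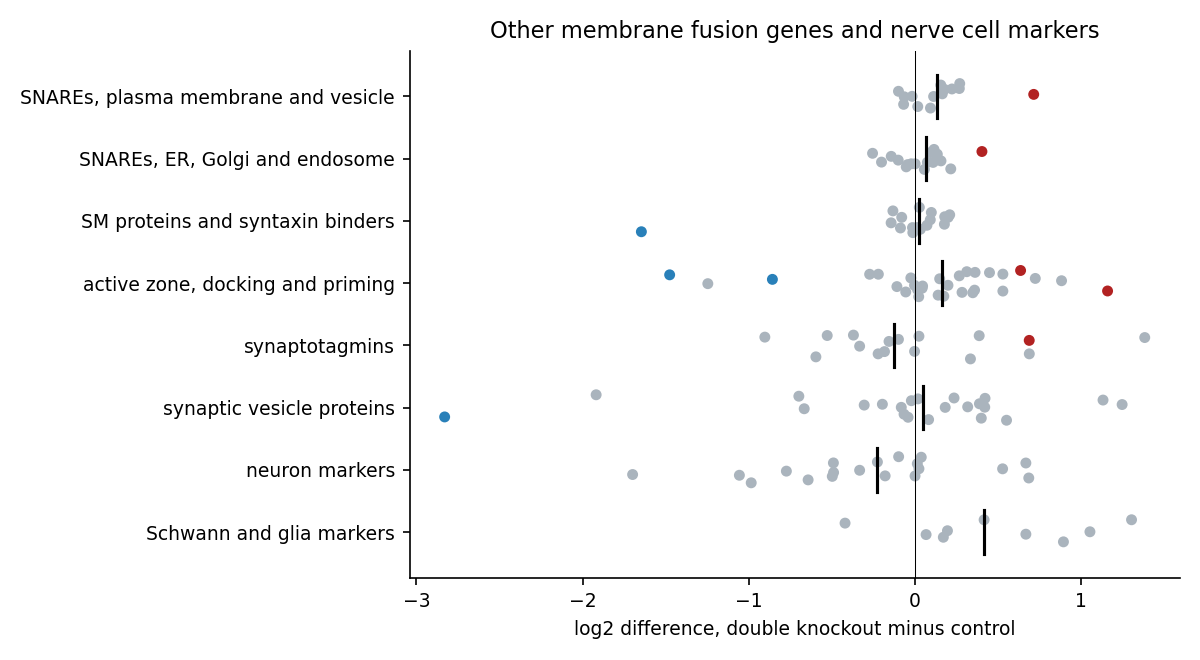
Log2 difference, double knockout minus control, of each tested gene in 6 lists of membrane fusion genes and 2 lists of nerve cell markers; red marks genes called higher, blue genes called lower, grey genes that did not pass, and the black bar is the list's median. Medians lie between -0.23 (neuron markers) and 0.42 (Schwann and glia markers), and no marker of either nerve cell list was called. Over markers with a mean of at least 50 the same medians are -0.36 and 0.12. The red point among the SNAREs of the plasma membrane and vesicles is Snap91, which is not a SNARE gene.

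Neurons and glia of the heart could hold neuronal fusion genes, so their markers were read beside the members. Of 19 tested neuron markers 0 were called higher and 0 lower by limma, with a median log2 difference of -0.23; at an unadjusted p under 0.05, 1 was higher and 2 were lower, and voom weights called 0. With no filter on low values, or without double knockout 1 or 2, 1 was called lower. The 20 markers summed to 1428 to 2044 in double knockout libraries and 1786 to 1953 in control libraries. The most abundant were Uchl1 (1038 ± 209 in double knockouts, 1203 ± 115 in controls), Gap43 (281 ± 60.7 and 275 ± 7.64) and Tubb3 (103 ± 53.05 and 133 ± 20.2), none of which is made by neurons alone. No marker of the neuron list was at 0 in all 6 libraries. Of 9 Schwann and glia markers 0 were called in either direction by limma, with a median of 0.42; 2 were higher at an unadjusted p under 0.05, and voom weights called 0. They summed to 627 to 908 in double knockout libraries and 648 to 730 in control libraries. Erbb3, a neuregulin receptor gene, had 522 ± 128 in double knockouts and 456 ± 48.6 in controls, and Cdh19, a cadherin gene, 20 ± 9.54 and 13.7 ± 2.52. In both nerve cell lists the double knockout sums ran below and above those of the controls. Among markers with a mean of at least 50, the median was -0.36 over 4 neuron markers and 0.12 over 2 glia markers. The part of nerve cells in the Unc13c and Napb values was not tested.

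Markers of other heart cells were read in the same way. The 12 cardiomyocyte markers summed to 644981 to 738236 in double knockout libraries and 786712 to 863839 in control libraries, with 1 called higher (Pln) and 2 lower (Myh6 and Actc1). The 8 smooth muscle and mural markers summed to 13220 to 18875 and 41619 to 45803 in the same order, with 0 called higher and 2 lower (Acta2 and Cnn1). The 10 endothelial markers summed to 26872 to 32162 and 24949 to 29978, the 8 fibroblast markers to 19681 to 39130 and 21478 to 29970, and the 7 epicardial markers to 6155 to 7623 and 6024 to 7403. Of these, Emcn and Krt19 were called higher. The Emcn call was lost without double knockout 2 or 3 or control 1, 2 or 3 (adjusted p up to 0.203) and without the robust option (0.143), and the Actc1 call without the robust option (0.0835). The genes named here were chosen after their values were seen. The cardiomyocyte and smooth muscle sums did not overlap between genotypes. Their gaps lie mainly in called genes: Myh6 (means of 79505 in double knockouts and 139844 in controls), Actc1 (130892 and 187753) and Acta2 (6030 and 26428). Myh7, the cardiomyocyte marker with the most counts, was at 212619 and 208894 and not called. Median log2 differences were -0.12 over the cardiomyocyte list (3 of 12 above 0) and -0.45 over the smooth muscle list (1 of 8). The part of these cells in the Unc13c and Napb values was not tested.

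As a description, the log2 difference of Unc13c lay between 2.07 and 2.28 over 17 settings and that of Napb between 1.71 and 1.89, and once trends with GC and length were taken out they were 2.10 and 1.72. Without both libraries numbered 3, which leaves the female-pattern libraries, they were 2.07 and 1.77, while Unc13a was at 0.50 (limma adjusted p = 0.423) and 0 genes of the 6 fusion lists were called in either direction. Without the robust option, the calls of Snap91, Bet1, Cplx1, Bsn, Rab27b, Syt14, Slc17a7, Wdr72 and Cx3cr1 were lost, and those of Sytl2, Cadps and Ptprc were kept. The calls of Bet1, Cplx1 and Rab27b were also lost once trends with GC and length were taken out.

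**Figure D5:**
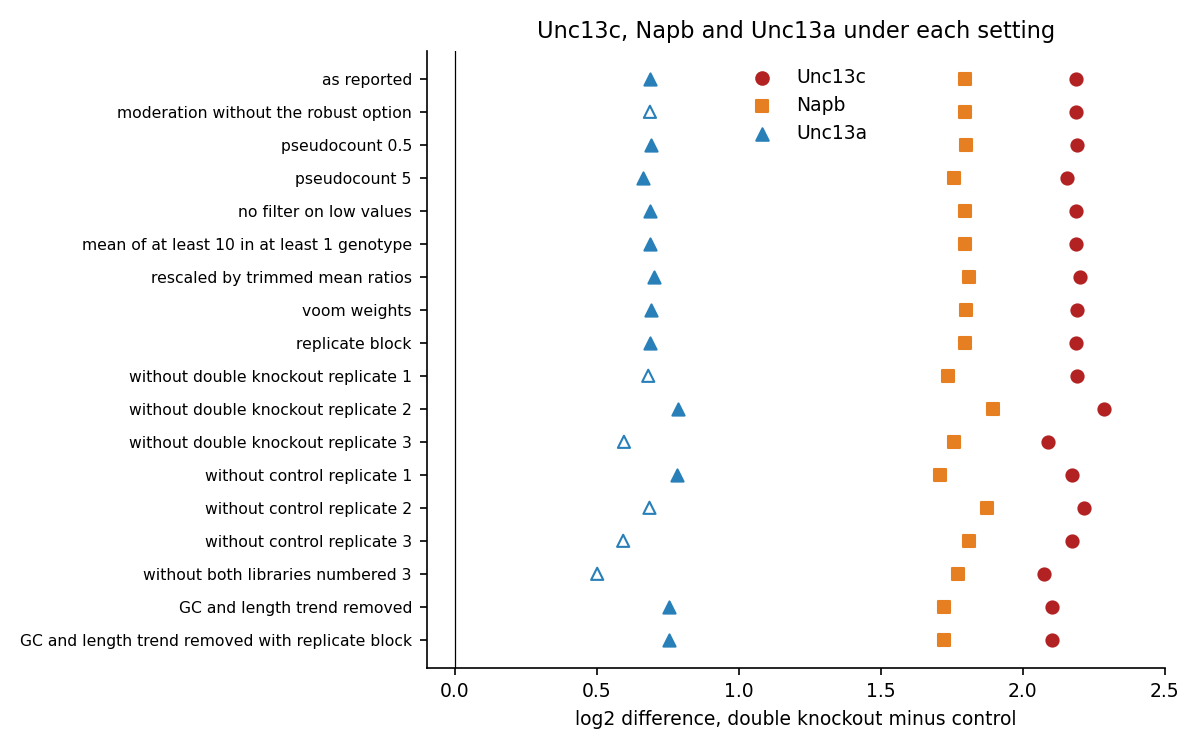
Log2 difference of Unc13c (red circles), Napb (orange squares) and Unc13a (blue triangles), double knockout minus control, as reported and under each other setting. Open triangles are settings in which Unc13a was not past the threshold; Unc13c stays between 2.07 and 2.28, Napb between 1.71 and 1.89 and Unc13a between 0.50 and 0.78.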

How the data were processed

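The deposited table holds a score per gene and library that the authors made from read counts: scaled by a factor per library and rounded, as whole numbers missing at even spacing below 400 show in 3 libraries (every 18.7 in double knockout 1, 139 in control 2 and 21.3 in control 3). Per the labels' protocols, 500 ng of total RNA went into stranded polyA libraries, read single-end over 75 bases. Tools listed, per the submitters' processing notes, were featureCounts 1.5.0, STAR 2.4.2a, DESeq, DESeq2 and Trimmomatic, with the mm10 build. Depth was estimated from the spacing or, where no number was missing, by likelihood.

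Genes with a mean of at least 1 in a genotype were fitted with limma 3.58.1 (R 4.3.3) on log2(value + 1), with variance trend and robust moderation, two-sided, Benjamini-Hochberg adjusted over 26747 genes, threshold 0.05. Fold changes on this scale understate those of low genes. The fit was tested on simulated data. No source says that libraries came from separate animals, so p-values measure the spread between libraries. Counting error limits low values. Coordinates and lengths are from GENCODE M21 (GRCm38), promoters from RefSeq. Members and lists were chosen with earlier results of these data known. Of 126 fusion list entries 124 were in the table; all 95 marker entries were. Named genes were the members, the targeted pair, the called genes of each fusion list (at most 4, by adjusted p), called and the 3 most abundant nerve cell markers, the nearest 2 tested protein-coding genes on each side of Unc13c and Napb, and the 3 genes most like each. Of the genes this rule names, 2 are not reported here.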

Additional observations from a re-analysis of the deposited data

How the results depend on the processing

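Of 169 member values under other settings, 158 kept their direction and side of the threshold; 6 lost the Unc13a call (without the robust option, without both libraries numbered 3, and without double knockout 1 or 3 or control 2 or 3). Values near 0 changed sign: over the left-out libraries Nsf ran from -0.020 to 0.033, Snap23 from -0.12 to 0.026, Napa from -0.0034 to 0.069, Snap25 from -0.32 to 0.18, Gap43 from -0.15 to 0.13 and Cst9 from -0.78 to 0.16, while Nxt1 was at 0.036 once GC and length trends were taken out, with or without the replicate block. The causes were not tested. Counts of called genes (618 higher, 681 lower) were 144 and 206 without the robust option, 14 and 24 without both libraries numbered 3, 186 to 608 and 234 to 739 with 1 library left out, and 963 higher with no filter on low values, where more genes were tested. Without double knockout 3, control 1 or control 3 they were 195 and 301, 218 and 263, and 186 and 234. The replicate block gave 674 and 681; same-numbered libraries deviated together with r of 0.05, 0.07 and 0.33, so the numbers were not taken as pairs, and the block changed no member's call. Levels per kb in controls moved with the union of exons as length: Napa to 523, Snap23 to 308, Nsf to 121, Napg to 60.7, Unc13b to 63.3, Napb to 14.7, Unc13d to 13.5 and Unc13a to 6.55.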
